A study of Mus musculus with 8 samples.

Results

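Genes known from basophils and mast cells, with the transcription factor gene Gata2 at their head, were followed in RNA of Ly6G-positive bone marrow cells. The genes were Gata2, Mcpt8, Prss34, Cpa3, Fcer1a, Ms4a2, Cd200r3 and Il4. They were found through the array probes whose RefSeq transcript belongs to one of these genes, and each of the 8 genes had 1 probe, out of 55681 on the array. The set was chosen by cell type with results of the same ATF3 KO against WT comparison known, and Gata2 was selected on its measured difference in that comparison, so the differences of the 8 genes between genotypes are given as a description and not as a test.

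The ATF3 KO group held 4 samples of mice without ATF3, an ATF/CREB family transcription factor that cells switch on under stress, and the WT group held 4 samples of wild-type mice. Both groups were on the C57BL/6 background, and cells were flushed from tibias and femurs and enriched for the neutrophil surface protein Ly6G with magnetic beads. Each RNA was labelled with Cy3 and hybridised to its own 1-colour Agilent array. The design text has RNA isolated immediately, whereas the description of 7 of the 8 samples speaks of 1 week in methylcellulose with 4-OHT, and the labels do not settle which holds. The age and sex of the animals, the form of the Atf3 deletion and whether samples came from separate animals are not given in the sources used here, so p-values cover the spread between these 8 arrays and no more. All ATF3 KO arrays lay in one row of the slide and all WT arrays in the other, so slide position and genotype cannot be told apart.

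Basophils and mast cells are granulocytes that carry the high-affinity IgE receptor and store proteases and histamine. GATA2, a zinc finger factor that binds GATA motifs, is required for both lineages and is also used by blood stem cells and by megakaryocyte and eosinophil precursors. In mouse marrow basophils are rare and make the protease mMCP-8 and the cytokine interleukin-4, and they do not carry Ly6G.

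The promoters are shown because 6 of the 8 genes hold a GATA motif in the window around a transcription start, while Gata2 and Mcpt8 hold none. Sequences are from RefSeq (GRCm38.p6), which had 10 promoter entries for the 8 genes. Each runs 5′ to 3′ from 250 bases before to 50 after the start, and capitals mark AGATAA or TGATAA on either strand.
Prss34 (chr17:25298144-25298443, plus strand): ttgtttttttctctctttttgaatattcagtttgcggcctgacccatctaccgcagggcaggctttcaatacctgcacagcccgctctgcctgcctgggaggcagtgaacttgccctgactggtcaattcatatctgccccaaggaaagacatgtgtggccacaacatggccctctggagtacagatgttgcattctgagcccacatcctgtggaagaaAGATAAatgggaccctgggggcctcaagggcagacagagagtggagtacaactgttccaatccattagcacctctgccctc
Cpa3 (chr3:20242132-20242431, minus strand): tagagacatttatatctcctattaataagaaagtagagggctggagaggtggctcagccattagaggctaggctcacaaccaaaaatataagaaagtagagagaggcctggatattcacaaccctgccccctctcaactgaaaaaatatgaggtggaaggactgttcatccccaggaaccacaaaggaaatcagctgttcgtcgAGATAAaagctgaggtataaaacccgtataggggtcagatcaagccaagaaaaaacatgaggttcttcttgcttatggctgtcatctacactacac
Fcer1a (chr1:173227180-173227479, minus strand): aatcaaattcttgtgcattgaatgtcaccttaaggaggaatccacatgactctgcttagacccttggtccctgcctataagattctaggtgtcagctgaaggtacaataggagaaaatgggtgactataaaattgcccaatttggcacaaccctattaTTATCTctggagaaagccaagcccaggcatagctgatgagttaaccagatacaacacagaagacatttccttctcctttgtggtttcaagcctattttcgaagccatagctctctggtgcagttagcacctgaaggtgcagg
Ms4a2 (chr19:11623670-11623969, minus strand): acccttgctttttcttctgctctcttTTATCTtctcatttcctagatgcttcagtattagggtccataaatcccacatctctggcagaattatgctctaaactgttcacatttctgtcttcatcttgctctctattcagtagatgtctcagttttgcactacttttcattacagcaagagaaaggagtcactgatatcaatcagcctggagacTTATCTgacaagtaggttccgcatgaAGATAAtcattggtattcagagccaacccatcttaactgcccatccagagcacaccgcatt
Gata2, upstream start (chr6:88193641-88193940, plus strand): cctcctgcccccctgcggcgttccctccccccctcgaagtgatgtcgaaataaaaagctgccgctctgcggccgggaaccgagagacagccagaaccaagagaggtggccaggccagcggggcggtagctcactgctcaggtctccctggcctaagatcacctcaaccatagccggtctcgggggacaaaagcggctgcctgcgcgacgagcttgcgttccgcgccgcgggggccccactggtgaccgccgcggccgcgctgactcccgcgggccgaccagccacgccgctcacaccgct
Gata2, downstream start (chr6:88198414-88198713, plus strand): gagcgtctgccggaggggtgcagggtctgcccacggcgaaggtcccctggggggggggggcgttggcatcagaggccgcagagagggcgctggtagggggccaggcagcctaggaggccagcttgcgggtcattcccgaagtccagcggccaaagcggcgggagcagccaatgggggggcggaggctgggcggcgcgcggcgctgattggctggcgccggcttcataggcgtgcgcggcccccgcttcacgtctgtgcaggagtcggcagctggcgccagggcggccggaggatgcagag
The motif stood 31 bases before the start in Prss34, 46 in Cpa3 and 92 in Fcer1a, and Ms4a2 held it at 224, 37 and 11 bases before the start. Cd200r3 held it at 115 and 39 bases before the start, and Il4 had it 14 bases after one of its 2 starts. Mcpt8 and both starts of Gata2 held none. Of the 10 entries 6 held AGATAA or TGATAA, against 18.61% of all 32851 promoter windows of this length. The ATF/CREB site TGACGTCA, its shorter core TGACGT, which lies inside it, and the AP-1 site TGANTCA were found in 0 of the 10 entries, against 1.79%, 7.51% and 7.81% of all windows. These counts describe letters in a window and say nothing of which factor binds there.

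Signals are given as log2 of the processed signal minus that of the array's 75th percentile, so a value of 0 is the level that 75% of the array's probes do not exceed. A probe counts as above background where the scanner software marks it as well above background. The 75th percentile itself lay between 112.5 and 160.6 scanner units on the ATF3 KO arrays and between 150.8 and 215.7 on the WT arrays, and from 46.0% to 53.2% of ATF3 KO probes and from 46.4% to 55.3% of WT probes were above background. With 4 arrays a group, precision is limited by their number. Of 13 neutrophil markers 12 had a named probe (Ly6g had none), and all 12 were above background. The highest were Camp, an antimicrobial peptide of neutrophil granules (11.08 ± 0.20 in ATF3 KO, 10.72 ± 0.17 in WT), S100a9, a calprotectin subunit (11.04 ± 0.22 in ATF3 KO, 10.66 ± 0.20 in WT), and Ltf, which encodes lactoferrin (10.70 ± 0.15 in ATF3 KO, 10.39 ± 0.20 in WT, SD, n = 4 each). The 1 probe of Atf3, the targeted gene, read 1.53, 1.00, 1.41 and 1.02 in ATF3 KO replicates 1 to 4, against 0.69, 0.82, 0.75 and 0.65 in WT. All ATF3 KO values thus lay above all WT values, as did those of 4.13% of all genes tested. The log2 difference was 0.51 (SE 0.14, limma adjusted p = 0.121). Whether the probe lies in the deleted part is not given in the sources used here. The name of the gene set was borne out for part of its members. Ms4a2 and Cd200r3 were above background on 0 of 8 arrays, and so were the mast cell protease genes Mcpt1, Mcpt4, Cma1 and Tpsg1. In RNA from a whole fraction, fewer cells of a type and less RNA per cell cannot be told apart.

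Gata2 was higher in ATF3 KO cells. On the log2 scale it read -1.54, -1.39, -1.71 and -1.72 in ATF3 KO replicates 1 to 4 and -2.53, -2.42, -2.33 and -2.09 in WT replicates 1 to 4. The groups did not overlap, and the probe was above background on all 8 arrays. The mean was -1.59 ± 0.16 in ATF3 KO and -2.34 ± 0.19 in WT (SD, n = 4 each), a log2 difference of 0.75 (SE 0.13) or 1.68-fold. In the limma fit over 21251 genes its adjusted p was 0.0494, the 80th smallest p of all, and 95 genes (0.447%) passed the threshold of 0.05. Of the 95, 78 were higher (0.367%) and 17 lower (0.08%), a split that became 152 and 84 with normexp background correction and 22 and 9 with quantile normalization. The excess of higher calls did not hold with no filter on dim probes (4 higher, 6 lower) or without WT replicate 1 (3 higher, 6 lower), and nearly vanished without WT replicate 3 (7 higher, 6 lower). Among the 6 members that could be tested Gata2 was the 1 that passed. Since that value is the reason Gata2 stands in the set, the count carries no weight.

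The Gata2 signal was low, and its difference depended on the scaling between arrays. Before scaling, the spot gave 55.1, 58.8, 42.4 and 34.1 scanner units in ATF3 KO replicates 1 to 4, against 37.1, 40.4, 32.8 and 35.5 in WT. The scanner software's own error of these spots lay between 5.03 and 6.69 units. Here the groups overlapped, with ATF3 KO replicate 4 below WT replicates 1, 2 and 4. That array also had the lowest 75th percentile of the 8. Without any scaling the log2 difference was 0.36 (SE 0.23, limma adjusted p = 0.199), while the median of all genes was -0.50, so that Gata2 lay 0.86 above that median. Scaling shifts all genes of an array by the same amount, so this gap is the same with the main scaling by construction. With the main scaling the median of all genes was -0.11.

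**Figure D1:**
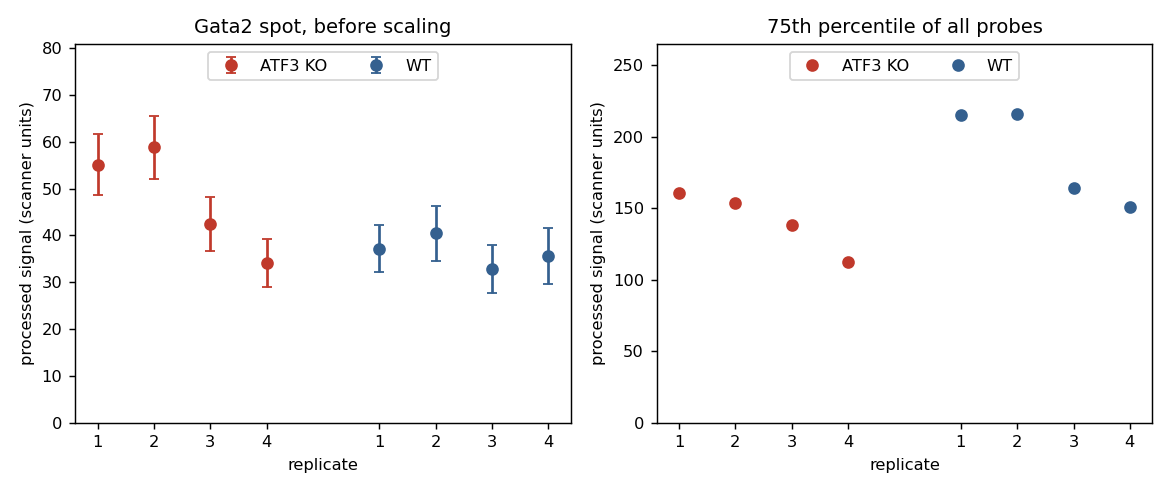
The left panel plots the processed signal of the Gata2 spot before scaling, in scanner units, for ATF3 KO and WT replicates, with bars for the scanner software's error, and the right panel plots each array's 75th percentile over the whole array in the same units. The Gata2 values overlap between the groups at 34.1 in ATF3 KO replicate 4, the array whose 75th percentile of 112.5 was the lowest.

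The difference of Gata2 was positive under all 18 processing alternatives and passed the threshold in 3 of them. For many of these the sign could not have changed. The filter, probe rule, variance model and replicate block left the difference at 0.75. Leaving out 1 array cannot reverse groups that do not overlap. The Gata2 difference was 0.42 (SE 0.10) with normexp background correction and 0.36 (SE 0.07) with the deposited log2 table, more than 1.5 times smaller than in the main processing. Its limma adjusted p ran from 0.036 to 0.168. The call was lost without ATF3 KO replicate 1, 2 or 4 and without WT replicate 1, 2 or 3, at adjusted p-values from 0.0722 to 0.148.

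**Figure D2:**
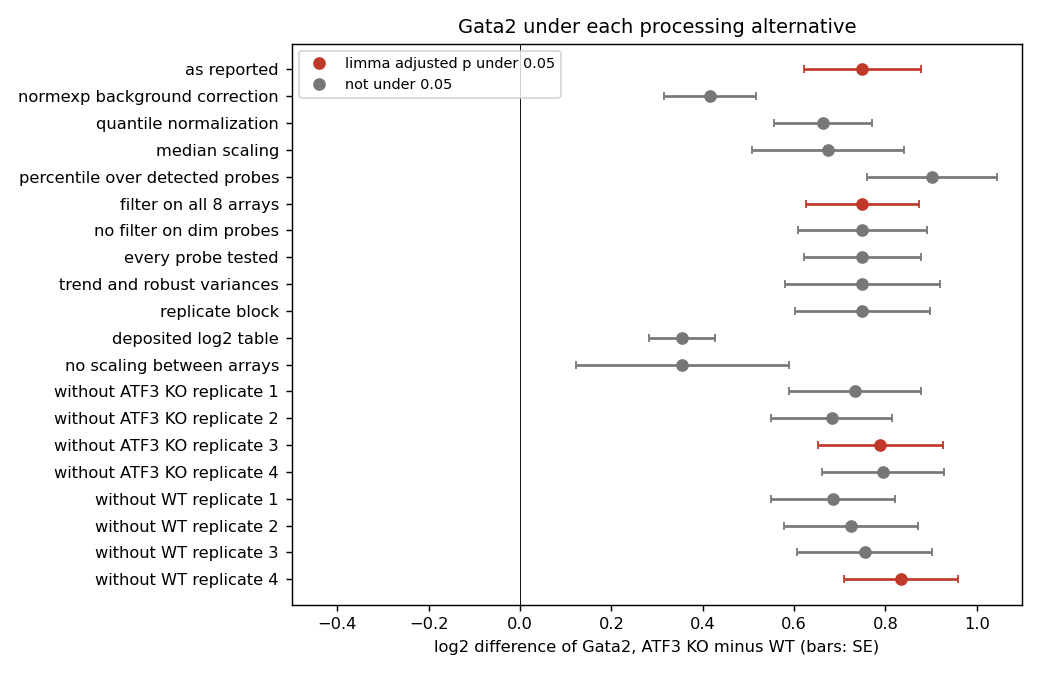
The log2 difference of Gata2, ATF3 KO minus WT, is plotted for each processing alternative, with bars for the standard error. All points lie above 0, from 0.36 to 0.90, and red points mark limma adjusted p-values under 0.05.

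The granule proteases of basophils had lower means in ATF3 KO than in WT, with overlapping groups. Mcpt8, which encodes the basophil serine protease mMCP-8, gave -0.48, -1.35, -0.69 and -0.77 in ATF3 KO replicates 1 to 4, against -0.61, -0.58, -0.88 and -0.29 in WT. All 8 arrays were above background, and the groups overlapped. Its mean was -0.82 ± 0.37 in ATF3 KO and -0.59 ± 0.24 in WT (SD, n = 4 each), a log2 difference of -0.24 with a 95% interval from -0.67 to 0.20.

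Prss34, which encodes the related serine protease mMCP-11, gave 0.70, -0.38, 0.56 and 0.39 in ATF3 KO replicates 1 to 4, against 0.91, 0.63, 0.38 and 0.74 in WT. It too was above background on all 8 arrays with overlapping groups. The log2 difference was -0.34 (95% interval from -0.85 to 0.17), from a mean of 0.32 ± 0.48 in ATF3 KO and 0.66 ± 0.22 in WT (SD, n = 4 each). ATF3 KO replicate 2, the array with the highest Gata2 value, had the lowest value of Mcpt8, of Prss34 and of Fcer1a. Without that array the difference of Prss34 was -0.11 and that of Mcpt8 -0.06. Both signs held under all 18 alternatives, some of which leave the difference unchanged.

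Cpa3, which encodes carboxypeptidase A3 of mast cell and basophil granules, was above background on 3 of 4 ATF3 KO arrays and on all 4 WT arrays. It gave -1.94, -2.63, -3.18 and -2.01 in ATF3 KO replicates 1 to 4, against -2.34, -2.35, -2.40 and -2.46 in WT. The WT values were close together and the ATF3 KO values lay on both sides of them, with an SD of 0.58 in ATF3 KO and 0.06 in WT. The log2 difference was -0.05 (95% interval from -0.61 to 0.50), and it was 0.19 without ATF3 KO replicate 3.

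The IgE receptor genes were near or under the limit of detection. Fcer1a encodes the IgE-binding alpha chain, and its log2 signal was -2.98, -3.60, -2.77 and -2.74 in ATF3 KO replicates 1 to 4, against -2.52, -3.00, -3.21 and -2.73 in WT. It was above background on 2 ATF3 KO and 3 WT arrays, and the groups overlapped. The log2 difference was -0.16 (95% interval from -0.64 to 0.33), and it was 0.03 without ATF3 KO replicate 2. Ms4a2, the signal-amplifying beta chain, lay between -5.26 and -4.53 in ATF3 KO and between -5.72 and -4.61 in WT. Cd200r3, an activating receptor of basophils and mast cells, lay between -5.41 and -4.64 in ATF3 KO and between -5.50 and -3.90 in WT. Neither was well above background on any array, so no difference is given for these genes. By contrast Fcer1g, the gamma chain that neutrophils share with other Fc receptors, was above background on all 8 arrays.

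Il4, the cytokine that basophils release for type 2 immunity, was printed on each array as 10 spots of the same probe. Of the spots, 38 of 40 were above background in ATF3 KO and 38 of 40 in WT. Its log2 signal was -1.63, -2.23, -2.63 and -2.09 in ATF3 KO replicates 1 to 4, against -2.36, -2.83, -2.06 and -2.02 in WT, and the groups overlapped. Before scaling, the spots of an array had a mean between 22.4 and 52.0 units in ATF3 KO and between 30.3 and 41.8 units in WT, with an SD between spots from 2.90 to 7.34 in ATF3 KO and from 3.55 to 6.99 in WT. The spot counts, means and SDs include 1 spot flagged as an outlier, at 44.7 units in ATF3 KO replicate 4, the array with the SD of 7.34. The log2 signal leaves that spot out. The range of these SDs covers the error that the scanner software gave for the single Gata2 spot. The log2 difference was 0.18 (95% interval from -0.35 to 0.70), and it ran from 0.00371 to 0.34 over the 18 alternatives.

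**Figure D3:**
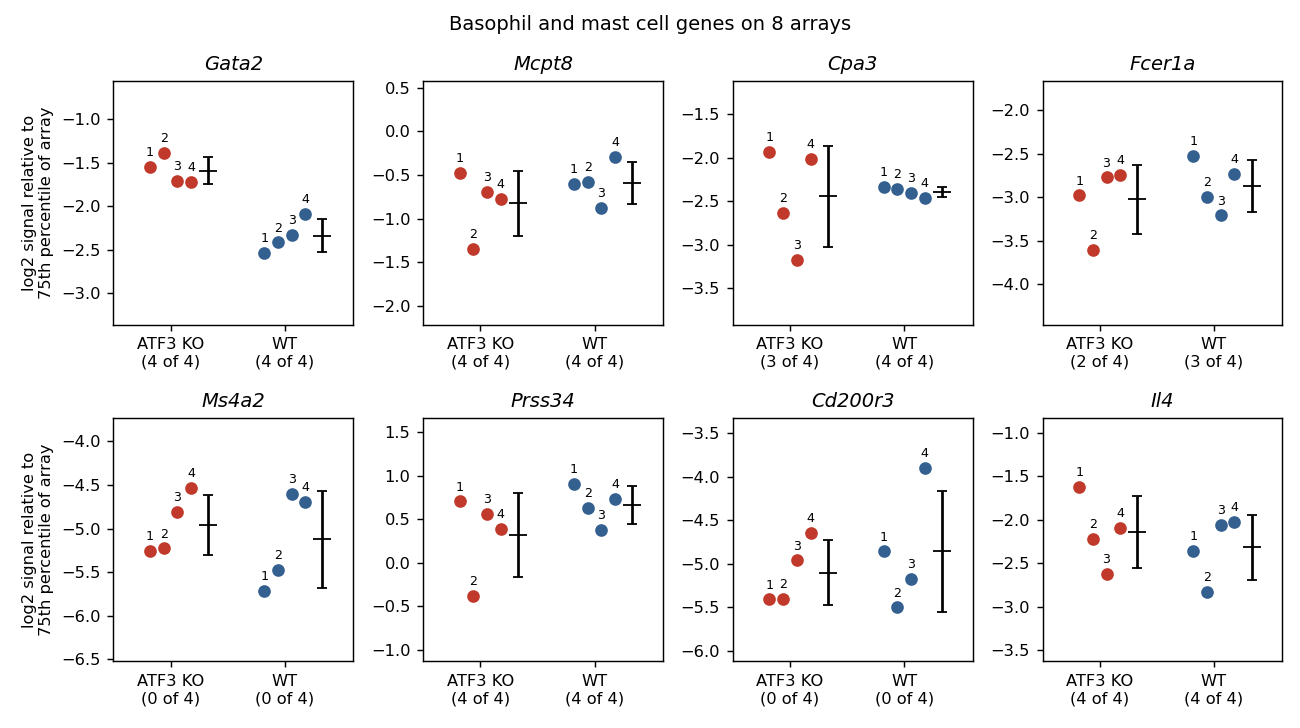
Each panel plots the log2 signal of a gene relative to its array's 75th percentile in ATF3 KO and WT replicates, numbered 1 to 4, with the mean and SD beside them and the number of arrays above background in brackets. All panels span the same number of log2 units, and Gata2 is the 1 gene whose groups do not overlap.

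Across the 8 genes, then, 6 passed the filter on dim probes (above background on at least 4 of 8 arrays), and Ms4a2 and Cd200r3 did not. Of the 6, Gata2 and Il4 had a positive difference, and 3 lay above the median of all genes. ATF3 KO arrays all above all WT arrays occurred in 1 of the 6 and in 4.13% of all genes tested. That 1 gene is Gata2, which was selected on its difference, so this count carries no weight either. The gene symbols whose deviations over the 8 arrays were closest to those of Gata2, by root mean square difference, were Rnf122 (0.12), Nppa (0.12), Krt18 (0.13), Pipox (0.14) and Arsj (0.15), out of 12516 compared. None of the 5 is a member. On this measure Il4 ranked 1800th at 0.42, Cpa3 9438th at 0.56, Mcpt8 10571st at 0.59, Fcer1a 11091st at 0.61 and Prss34 11949th at 0.69. The measure takes in the gap between genotypes on which Gata2 was selected. In each of the 5 nearest genes the ATF3 KO arrays also all lay above the WT arrays. These ranks therefore restate that selection in part and carry no weight as a test of whether members follow Gata2.

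Wider lists of genes that work with these showed no call. Over all 21251 genes tested, 23.9% had an unadjusted limma p under 0.05, with 9.38% higher and 14.5% lower in ATF3 KO. Of the GATA factors and their partners 15 of 16 were tested, 0 passed limma's threshold in either direction (4 of the 15 had an unadjusted p under 0.05, all lower, against 14.5% lower of all genes), and the median log2 difference was -0.14, against -0.11 for all genes. The smallest p-values were those of Mitf, the master factor of mast cells (-0.37, SE 0.10), Cebpa, a factor of granulocyte fate (-0.36, SE 0.15), and Runx1 (-0.23, SE 0.10), at limma adjusted p-values from 0.113 to 0.203. Another Mitf probe differed by -0.06 and another Runx1 probe by -0.10. Both were above background on all arrays, with overlapping groups. Gata1, which takes over from GATA2 in red cells and platelets and was singled out here after its values were seen, gave 3.45, 3.56, 3.39 and 3.14 in ATF3 KO replicates 1 to 4, against 3.93, 3.35, 3.12 and 2.33 in WT. Its highest and its lowest value were both in WT, and its log2 difference was 0.20 (SE 0.29, limma adjusted p = 0.654).

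Of the 13 genes that pass on the IgE receptor signal, 12 were tested and 0 passed limma's threshold. None of the 12 had an unadjusted p under 0.05, and their median was -0.07. Vav1, an exchange factor downstream of the receptor, differed by -0.24 (SE 0.12), Gab2, an adaptor, by 0.26 (SE 0.15), and Lat, the linker of the signalling complex, by 0.40 (SE 0.23), at limma adjusted p-values from 0.249 to 0.298.

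Of the granule and lipid mediator genes 16 of 17 had a named probe, 9 were tested and 0 passed (2 of the 9 had an unadjusted p under 0.05, both lower, against 14.5% lower of all genes), with a median of -0.13. Hpgds, the prostaglandin D2 synthase of mast cells, differed by -0.48 (SE 0.15) and Hdc, which makes histamine, by 0.17 (SE 0.11), at limma adjusted p-values of 0.144 and 0.322. Hdc is used by neutrophils too, and its log2 signal was 8.38 ± 0.19 in ATF3 KO and 8.21 ± 0.02 in WT (SD, n = 4 each). The probes of Tpsb2, a mast cell tryptase, disagreed, since one was above background on all 8 arrays and the other on 0.

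Receptors of basophils and mast cells had 14 of 19 genes tested and 0 past limma's threshold, with a median of -0.24 and 1 positive value. An unadjusted p under 0.05 was found for 5 of the 14, 1 higher and 4 lower, against 9.38% higher and 14.5% lower of all genes. Cd200r1, the inhibitory relative of Cd200r3, differed by -0.38 (SE 0.10), Ms4a3, a relative of Ms4a2 found in myeloid progenitors, by -0.39 (SE 0.14), and Kit, the stem cell factor receptor, by -0.30 (SE 0.11), at limma adjusted p-values from 0.117 to 0.161. The receptor genes Ptgdr2, Cd200r2, Itga2, Mrgprb1 and Mrgprb2 were above background on 0 of 8 arrays. In the list of type 2 and other cytokines and their receptors, Il5, Il6, Il9 and Il13 were not above background on any array either. Of that list 4 of 9 were tested, 0 passed (1 of the 4 had an unadjusted p under 0.05, against 23.9% of all genes) and the median was -0.21, with Il2rg at -0.24, Il13ra1 at -0.22 and Stat6 at -0.21 (limma adjusted p-values from 0.197 to 0.31). Other Stat6 probes, above background on all 8 arrays, differed by 0.02 and -0.22.

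Markers of other cells that use Gata2 or could share the fraction had positive medians in some lists, with no gene past the threshold. Of the eosinophil markers 9 of 9 were tested and 0 passed (6 of the 9 had an unadjusted p under 0.05, 5 higher and 1 lower, against 9.38% higher and 14.5% lower of all genes), and 8 lay above the median of all genes, with a median difference of 0.41. Prg3 (0.76, SE 0.24) and Prg2 (0.71, SE 0.25), which encode granule major basic proteins, and Il5ra, the interleukin-5 receptor (0.41, SE 0.11), had the smallest p-values, at limma adjusted p-values from 0.123 to 0.157. The ATF3 KO values of these 3 genes, the list's smallest in p, all lay above the WT values, as did those of 4.13% of all genes tested. The summed signal of the list, relative to the 75th percentile, ran from 186.7 to 293.7 in ATF3 KO and from 188.6 to 248.1 in WT, and no marker was at background on all arrays. Siglecf, an eosinophil surface lectin, had a negative difference of -0.42.

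With the probe of the highest mean standing for each gene, all 8 megakaryocyte and platelet markers had positive differences, with a median of 0.64. Of these 0 passed (4 of the 8 had an unadjusted p under 0.05, against 9.38% higher of all genes). The probes of Gp1bb disagreed. The chosen probe differed by 0.31 and another by -0.59, the latter above background on 2 ATF3 KO and 4 WT arrays. A further probe, above background on 1 ATF3 KO and 2 WT arrays, differed by 0.23. Itga2b (0.63, SE 0.21), Gp6 (0.75, SE 0.27) and Vwf (0.67, SE 0.26) had limma adjusted p-values from 0.151 to 0.177. Their summed signal ran from 31.7 to 86.2 in ATF3 KO and from 28.1 to 42.5 in WT. Itga2b was highest in ATF3 KO replicate 4 (1.29) and lower in replicate 2 (0.23), where Gata2 was highest. The part of these lists in the Gata2 difference was not tested.

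The remaining lists lay nearer the median of all genes and had 0 genes past the threshold each. An unadjusted p under 0.05 was found for 5 of 12 neutrophil markers, all higher, against 9.38% higher of all genes. It was found for 1 of 7 T and innate lymphoid markers, against 23.9% of all genes. None of the 7 stem and progenitor or 8 erythroid markers had one. Stem and progenitor markers (7 of 10 tested) had a median of 0.01, with Cd34 at -0.24 and Flt3 at 0.27. Erythroid markers (8 of 8) had a median of 0.06, with Alas2 at -0.31, Klf1 at 0.28 and Tfrc at -0.12. Other Tfrc probes, above background on all arrays, differed by 0.17 and -0.05. T cells also make interleukin-4, and T and innate lymphoid markers had a median of -0.11 over 7 of 10 genes, with Cd4 at -0.32, Nkg7 at -0.27 and Lck at 0.39. Another Nkg7 probe, above background on all arrays, differed by 0.03. Another Cd4 probe, above background on 2 ATF3 KO and 2 WT arrays, differed by -0.03. Neutrophil markers had a median of 0.09 over 12 genes, and 11 of them lay above the median of all genes. The limma adjusted p of every gene named from these lists was 0.168 or higher.

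**Figure D4:**
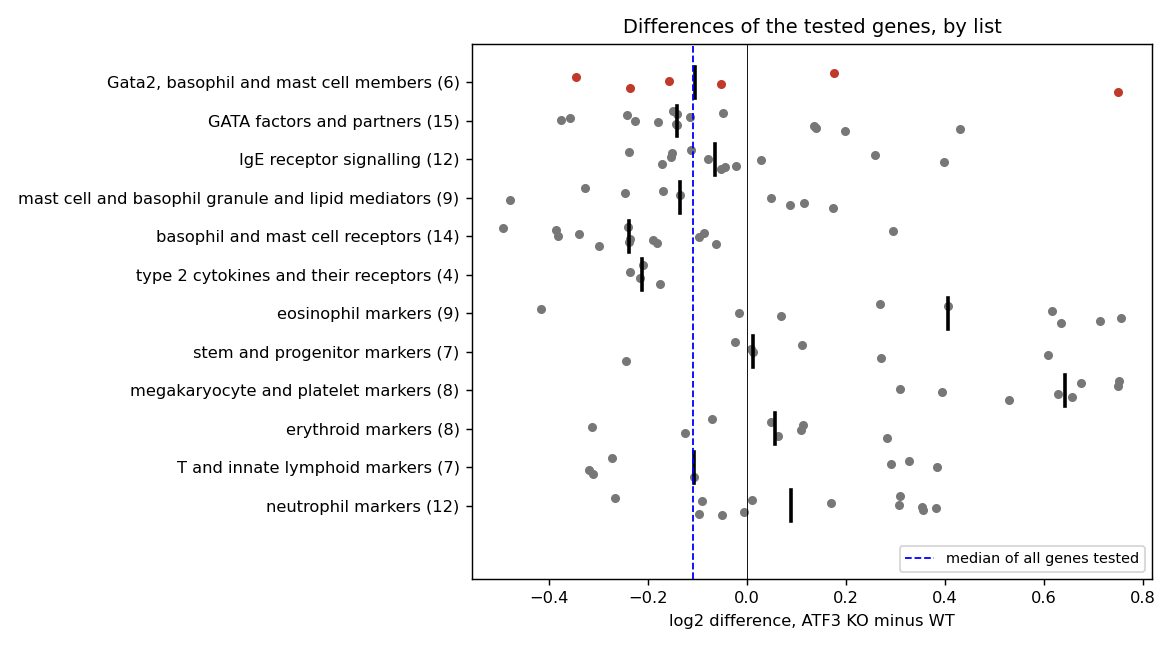
Each point is the log2 difference, ATF3 KO minus WT, of a gene that passed the filter on dim probes, in rows by list with the number of genes in brackets. Black bars are list medians and the dashed line is the median of all genes tested, at -0.11. The rightmost point of the top row is Gata2 at 0.75, with the other 5 members between -0.34 and 0.18.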

How the data were processed

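Spot intensity was deposited by the authors as Agilent Feature Extraction files, which name version 10.9.1.1 in their headers (10.10 in the submitters' processing notes). The processed intensity has background subtracted and a spatial trend removed within an array, per the file headers. The deposited table of the series holds log2 values, and no source used here states their scale, centring or direction. Each of its columns correlated best with the log2 median signal of its own array, with column medians of 6.15 to 6.16, and it served as an alternative.

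Control spots and outlier spots (98 to 159 an array) were left out, spots of a probe were averaged, and log2 signals were scaled to the array's 75th percentile. That percentile was taken over all probes, since 50.02% of values were above background. Probes above background on at least 4 of 8 arrays were tested, with the probe of the highest mean standing for a gene (21251 genes). Symbols came from RefSeq transcripts of GRCm38.p6 for 27235 of 55681 probes. The headers name mm9, so GRCm38.p6 coordinates are given for promoters only. limma 3.58.1 in R 4.3.3 compared ATF3 KO with WT, with Benjamini-Hochberg adjustment. On simulated data for this comparison it recovered 34% of genes changed 1.5-fold and 60% changed 2-fold. The simulation drew each gene on each array independently, without shifts shared by many genes, so these rates may not hold for the real arrays. The smallest root mean square difference between arrays was 0.282, so no array repeated another. Each array was counted as 1 sample, though whether samples came from separate animals is not given.

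The members and lists were chosen with earlier results of these data known. Named are all members, the 3 genes with the smallest p in each other list (the highest signal for neutrophil markers), and the 5 genes most like Gata2, except that some genes are not reported here. Alternatives were the background correction, scaling, filter, probe rule, variance model, replicate block, deposited table and leaving out each array. The normexp alternative (offset 50) used the median signal, the files having no mean signal column.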

Additional observations from a re-analysis of the deposited data

How the results depend on the processing

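The count of member genes past the threshold, 1 in the main processing, was 0 with median scaling, normexp background correction, no filter on dim probes, the percentile over detected probes, quantile normalization, every probe tested, trend and robust variances, the replicate block and the deposited log2 table. It was 1 with the filter on all 8 arrays and ran from 0 to 1 when 1 array was left out. The count over all genes, 95, was 236 with normexp, 31 with quantile normalization, 217 with median scaling, 44 with the percentile over detected probes, 10 with no filter, 58 with every probe tested, 192 with trend and robust variances and 150 with the deposited table, and ran from 9 (without WT replicate 1) to 234 (without ATF3 KO replicate 3) when 1 array was left out. The cause of these shifts was not tested.

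With the replicate block 72 genes passed and the Gata2 difference of 0.75 had a limma adjusted p of 0.121. Whether the replicate numbers pair the arrays is not settled. The deviations of same-numbered arrays correlated across genes at 0.19, -0.13, -0.27 and 0.18. By this correlation 0 of the 4 ATF3 KO arrays was closest to the WT array of its own number. These deviations come after scaling, which removes the level of an array. Before scaling, the 75th percentile was lowest in replicate 4 of both groups, at 112.5 scanner units in ATF3 KO and 150.8 in WT. The signs of Gata2, Mcpt8, Prss34 and Il4 were the same in all 18 alternatives, that of Cpa3 in 13 of 17 and that of Fcer1a in 15 of 17. The filter, probe rule, variance model and replicate block left these differences unchanged, so the sign could not change there. Cpa3 and Fcer1a were not tested with the filter on all 8 arrays. The scaling-free values of Gata2 were added after seeing the data. Signal near background limits what can be said of Gata2, Cpa3, Fcer1a and Il4.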
